A study of Homo sapiens with 4 samples.

Results

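The genes described here are 42 DNA repair genes, chosen by name for their known roles: the poly(ADP-ribose) enzymes around PARP1, the mismatch repair genes, and genes of base excision, homologous recombination, end joining, nucleotide excision repair, checkpoint signalling and the Fanconi anaemia core complex. This list and the further gene lists below were chosen with earlier results of these data known. The shares called are therefore descriptions and not tests of lists chosen blind. All 42 genes were on the array, with 65 probes and 128 spots, among 27719 named genes in all. Each gene was read by its brightest probe, and the brightest probe of all 42 was well above background in both channels on all 4 arrays.

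The samples came from HCT116, a cell line grown from a human colon cancer. Clone #3-1 and clone #4-7 stably carried a short hairpin RNA against N-BLR, a long non-coding RNA, and each was compared with HCT116 cells carrying an empty vector. Each clone had 2 arrays, which the labels call biological replicates, and every array was hybridised with the labelled clone and the labelled control together, in different dyes. The labels speak of lentiviral transduction and the methods of a transfected shRNA vector with G418 selection. Each clone is a single selected line and the control is 1 RNA, so a difference between a clone and the control cannot be told apart from a difference between selected lines. No probe for N-BLR was read here, so the knockdown itself is not shown.

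Cells repair DNA through pathways that share a few enzymes. Poly(ADP-ribose) polymerases mark strand breaks with chains of ADP-ribose that call in repair proteins, and cleavage of the PARP1 protein by caspases is a common sign of apoptosis. Mismatch repair removes the mispaired bases that replication leaves, and HCT116 is known to be deficient in it, which gives the line unstable microsatellites. Homologous recombination copies an intact sister strand and is used mainly in S and G2 phase, while end joining ligates broken ends directly.

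The arrays measured mRNA only, as the log2 ratio of the Cy5 over the Cy3 signal of a probe. The labels give Cy5 to the clone and Cy3 to the empty vector on all 4 arrays, with no dye swap. By these labels CDH1, the epithelial adhesion protein E-cadherin, was lower in the clones, with mean log2 ratios of -2.57 in clone #3-1 and -1.32 in clone #4-7. Both probes of VIM, the mesenchymal filament vimentin, were higher, at 4.43 and 4.01 in clone #3-1 and at 2.37 and 2.30 in clone #4-7. The study states the opposite direction for CDH1 and VIM in these clones, from its arrays and also from qRT-PCR and immunofluorescence. Below, a gene is called higher or lower by its Cy5 signal against its Cy3 signal. If the channels were exchanged, every sign would turn and every size and test would stay.

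The single channels of the repair genes also went against the labels. A control RNA shared by all arrays should give the same level on the arrays of both clones, and the clone channel should be the one that differs. Among the 42 genes the median absolute difference between the arrays of clone #3-1 and those of clone #4-7 was 0.0609 in Cy5 and 0.329 in Cy3, on the log2 scale. Between the 2 arrays of a clone the same median lay between 0.0381 and 0.0597 in either channel. Over 18284 genes well above background the median difference between the clones' arrays was 0.0579 in Cy5 and 0.224 in Cy3. The pattern was therefore not particular to the repair genes. XRCC4, a ligase cofactor of end joining, had Cy5 levels of 11.62 and 11.49 on the arrays of clone #3-1 and of 11.40 and 11.52 on those of clone #4-7. Its Cy3 levels were 12.28 and 12.13 on the arrays of clone #3-1 and 10.70 and 10.79 on those of clone #4-7. The Cy5 levels of XRCC4 overlapped between the clones' arrays and the Cy3 levels did not. For 35 of the 42 genes the channel labelled as the control differed more between the clones' arrays than the channel labelled as the clone. With the software's processed signals, only centred on the median of each array and channel, this held for 37 of the 42. Neither count was made over all genes. The comparison of the channels was chosen after the data were examined. The direction given for every gene below therefore rests on the dye labels alone. Whether the dyes were exchanged was not tested.

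**Figure D1:**
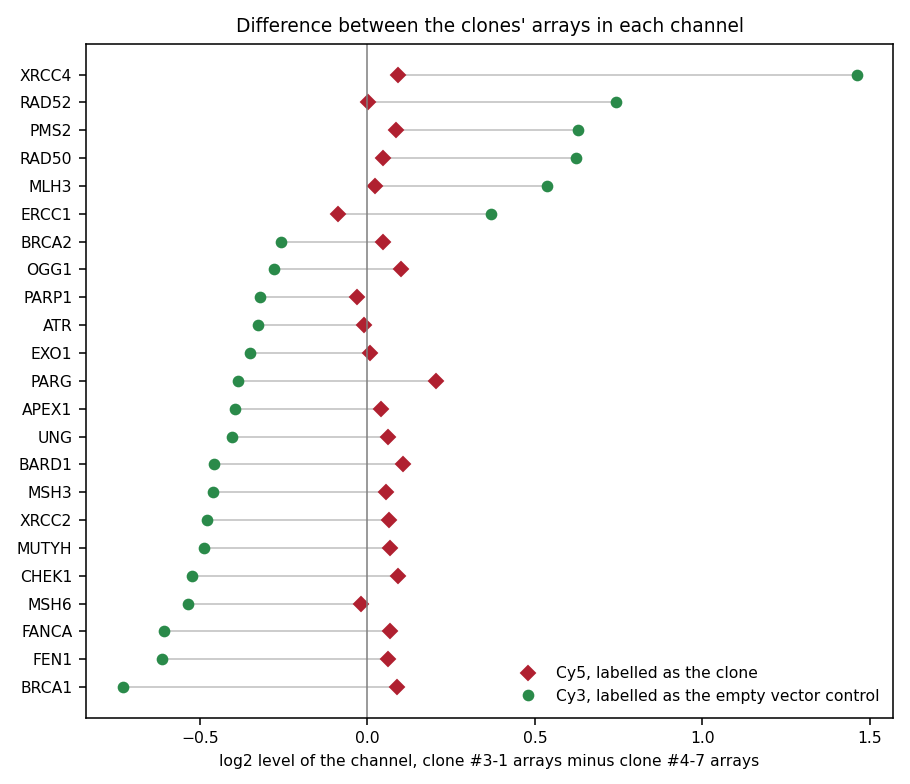
Log2 level of each channel, arrays of clone #3-1 minus arrays of clone #4-7 (means of 2 arrays each), for the 23 repair genes called for the difference between the clones. The Cy5 points lie between -0.0885 and 0.204 and the Cy3 points between -0.731 and 1.46, with the larger difference in Cy3 for all 23 genes.

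The probes themselves show which part of a transcript was read. For 12 of the 65 probes the deposited hg17 coordinates spanned more than 100 bases, while a probe has at most 60 letters, so these probes cross an exon junction and read spliced RNA. Some of the junction probes of genes called for the difference between the clones are printed here in lower case, as deposited. For PMS2 that call was made by its brightest probe, and the junction probe itself was not called for the difference. XRCC4 was read at chr5:82536465-82590132, RAD50 at chr5:132004378-132005809, MLH3 at chr14:74559344-74567029 and PMS2, by its junction probe, at chr7:5790572-5791469. XRCC4 and RAD50 lie on the plus strand, and MLH3 and PMS2 on the minus strand.
XRCC4: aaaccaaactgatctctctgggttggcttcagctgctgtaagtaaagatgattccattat
RAD50: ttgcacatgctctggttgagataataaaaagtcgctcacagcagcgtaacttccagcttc
MLH3: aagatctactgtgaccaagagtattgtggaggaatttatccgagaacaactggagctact
PMS2: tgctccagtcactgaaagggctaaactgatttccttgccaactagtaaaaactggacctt

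In clone #3-1, 19 of the 42 repair genes were higher and 6 were lower at a limma p under 0.001, and 17 were not called. Over all 27719 genes 16.7% were called higher and 16.5% lower. Among the 18284 genes as well above background as the repair genes, 24.5% were called higher and 23.7% lower, against 45.2% and 14.3% of the repair genes. In clone #4-7, 17 were higher, 5 were lower and 20 were not called. The shares over all genes were 15.9% and 15.2%, those of the genes well above background 23.2% and 22.1%, and those of the repair genes 40.5% and 11.9%. Shares over all genes were not set beside the counts under other settings that follow. Without normalization between arrays the split in clone #4-7 was 12 higher and 6 lower. Leaving out either array of clone #4-7, or an offset of 0 in the background correction, left 9 genes called higher there, and plain background subtraction left 7. With all 4 arrays and the settings described, the share of repair genes called higher was above the background in each clone. The share called lower was near that of all genes and below that of the genes well above background.

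The changes were small. The median log2 ratio of the 42 genes was 0.10 in clone #3-1 and 0.13 in clone #4-7, beside 0.01 over all genes in each. The largest ratio was that of EXO1 in clone #3-1, 2.19-fold, with BRCA1 also at 2.19-fold. Of the called genes, 12 passed 1.5-fold in clone #3-1 and 6 in clone #4-7, and 2 and 0 passed 2-fold. Shares over all genes were not counted at these fold sizes. The median absolute log2 ratio of the 42 genes was 0.27 in clone #3-1 and 0.22 in clone #4-7. Over genes well above background it was 0.22 and 0.21. The SD between the 2 arrays of a clone had a median of 0.0294 over the 65 probes in clone #3-1 and of 0.0249 in clone #4-7, so that differences well under 1.5-fold passed the test. The clones share the control RNA, so their ratios are set side by side and are not independent.

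**Figure D2:**
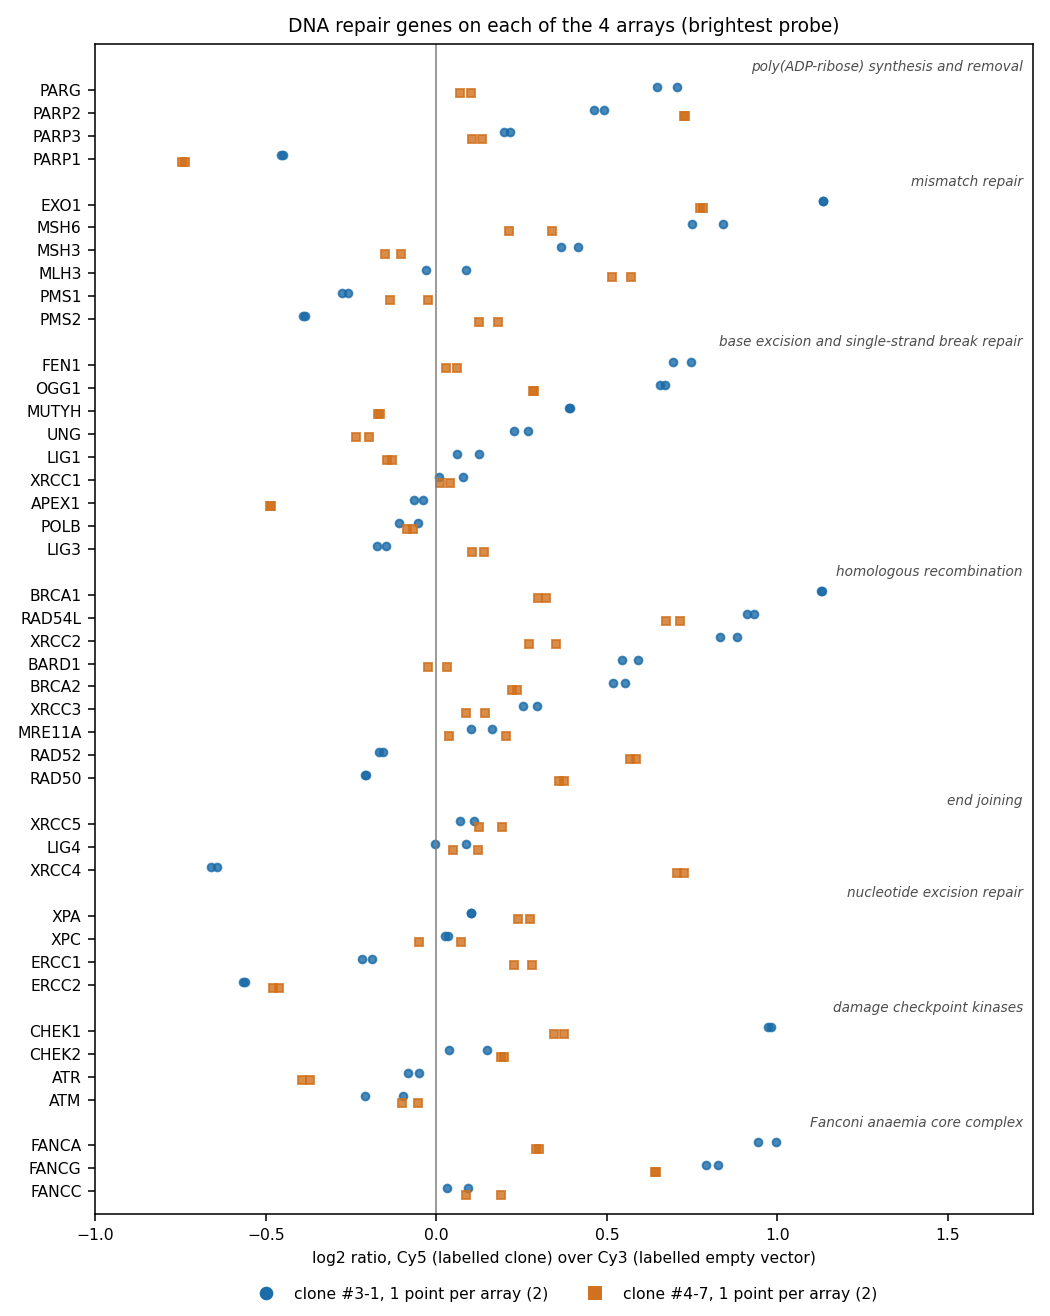
Log2 ratio of Cy5 over Cy3 on each of the 4 arrays for the 42 repair genes, grouped by role, with circles for the 2 arrays of clone #3-1 and squares for the 2 arrays of clone #4-7. EXO1, BRCA1, CHEK1 and FANCA lie farthest to the right in clone #3-1, PARP1 and ERCC2 lie below 0 in both clones, and XRCC4 lies on opposite sides of 0.

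PARP1, the main poly(ADP-ribose) polymerase, was lower in both clones. Its probe is printed 10 times on each array and lies at chr1:222855552-222855610 (hg17, minus strand). The log2 ratios were -0.46 and -0.45 on the arrays of clone #3-1 and -0.74 and -0.75 on those of clone #4-7. All 4 arrays were below 0 and the clones did not overlap. The means were 1.37-fold lower in clone #3-1 (adjusted p = 9.8e-05) and 1.67-fold lower in clone #4-7 (adjusted p = 2.2e-05, limma with Benjamini-Hochberg adjustment). Within an array the spots of PARP1 had SDs of 0.0480 to 0.0593, and no spot on any array was above -0.347. The clones differed by 0.29 (95% interval 0.18 to 0.40, adjusted p = 0.0040). This difference passed the threshold in 6 of 15 alternative settings and missed it in 9, with values of 0.285 to 0.353. Among the 6, an adjusted p under 0.05 is looser than the main call and could not fail. Averaging the probes of a gene, or keeping only probes well above background, left the PARP1 values as they were. These passes therefore add little. In the single channels, Cy5 was at 13.24, 13.19, 13.23 and 13.26 and Cy3 at 13.69 and 13.64 on the arrays of clone #3-1 and at 13.97 or more on those of clone #4-7, so the clones' arrays differed in Cy3.

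PARP2, the second break-activated polymerase, lay on the other side of 0 from PARP1. Its log2 ratios were 0.46 and 0.49 in clone #3-1 and 0.73 and 0.73 in clone #4-7, which is 1.39-fold and 1.66-fold higher (adjusted p = 8.4e-05 and 2.4e-05). The difference between the clones was -0.25 (95% interval -0.37 to -0.14) and did not pass the threshold. PARG, the hydrolase that removes poly(ADP-ribose), was at 0.65 and 0.70 in clone #3-1 and at 0.10 and 0.07 in clone #4-7. It was called higher in clone #3-1, 1.60-fold, and not in clone #4-7, and the clones differed by 0.59 (95% interval 0.47 to 0.71, adjusted p = 0.00035). PARP3, a smaller polymerase of the family, was at 0.20 and 0.22 in clone #3-1 and at 0.11 and 0.13 in clone #4-7. PARP3 was called in clone #3-1 only narrowly, at 1.15-fold (adjusted p = 0.0027), and its dimmer probe gave 0.04 there. Of the other 4 genes of poly(ADP-ribose) metabolism listed, PARP4, TNKS, TNKS2 and ADPRHL2, 1 was lower in clone #3-1 and 0 were called in clone #4-7 by limma. The called gene was PARP4, at -0.28.

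Of the 6 mismatch repair genes, 3 were higher and 2 lower in clone #3-1, and 3 were higher and 0 lower in clone #4-7, where the other 3 had an unadjusted p of 0.001 or more. That is 50% higher in each clone, beside 24.5% and 23.2% of genes well above background. The shares lower were 33.3% and 0%, beside 23.7% and 22.1%. EXO1, the exonuclease that removes the mispaired strand, was the highest member in both clones. Its log2 ratios were 1.14 and 1.13 in clone #3-1 and 0.78 and 0.77 in clone #4-7. These are 2.19-fold and 1.71-fold higher, and the clones differed by 0.36 (95% interval 0.24 to 0.47, adjusted p = 0.0017). MSH6, which recognises single mismatches as the partner of another MutS protein, was at 0.84 and 0.75 in clone #3-1 and at 0.34 and 0.21 in clone #4-7. The call of MSH6 in clone #4-7 (adjusted p = 0.0032) was lost when any 1 of the 4 arrays was left out. MSH3, which recognises longer loops, was at 0.37 and 0.42 in clone #3-1 and at -0.15 and -0.10 in clone #4-7. The other MSH3 probe gave means of 0.44 and 0.02, and both probes were called higher in clone #3-1 and neither in clone #4-7. The clones differed by 0.52 by the first MSH3 probe, which was called, and by 0.42 by the other, which was not.

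The MutL genes ran differently. MLH3 was at -0.03 and 0.09 in clone #3-1 and at 0.51 and 0.57 in clone #4-7, where it was 1.46-fold higher (adjusted p = 0.00014). The clones differed by -0.51 for MLH3 (95% interval -0.66 to -0.37). PMS2, the endonuclease subunit of the main MutL complex, was read by 4 probes, all called lower in clone #3-1 with means from -0.39 to -0.29. In clone #4-7 the same PMS2 probes had means from 0.00 to 0.23 and none was called. The brightest PMS2 probe was at -0.38 and -0.39 in clone #3-1 and at 0.13 and 0.18 in clone #4-7, a difference of -0.54 (adjusted p = 0.00044). The other PMS2 probes gave differences of -0.611 and -0.306, which were called, and the junction probe -0.307, which was not. The human genome holds near-identical copies of PMS2, so these probes may read more than 1 gene. PMS1 was at -0.26 and -0.28 in clone #3-1, where it was called lower, and at -0.14 and -0.02 in clone #4-7. Its other probe was not well above background on any array.

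Of the 9 base excision and single-strand break genes, 4 were higher and 0 lower in clone #3-1, and 1 was higher and 2 were lower in clone #4-7. The shares higher were 44.4% and 11.1%, beside 24.5% and 23.2% of genes well above background. The shares lower were 0% and 22.2%, beside 23.7% and 22.1%. FEN1, the flap nuclease of long-patch repair and of replication, was at 0.69 and 0.75 in clone #3-1 and at 0.06 and 0.03 in clone #4-7. The clones differed by 0.68 (95% interval 0.55 to 0.80), and the second FEN1 probe gave 0.59. MUTYH, which removes adenine opposite oxidised guanine, had means of 0.39 and -0.17 by its brightest probe. The other MUTYH probe gave 0.18 and 0.09 and was called in neither clone, nor for the difference of 0.09. UNG, which removes uracil, had means of 0.25 and -0.22. UNG was called in both clones with opposite signs. APEX1, the endonuclease that cuts abasic sites, had means of -0.05 and -0.49 by its brighter probe and of -0.02 and -0.43 by the other, and was called lower in clone #4-7 by both. OGG1, which removes oxidised guanine, was called higher in both clones by its brightest probe, at 0.66 and 0.29. That OGG1 probe and the others were designed on different transcripts, and the others gave 0.25 and 0.08 in clone #3-1 and 0.09 and 0.02 in clone #4-7. XRCC1, POLB, LIG1 and LIG3, the scaffold, the polymerase and the ligases, were not called by their brightest probes in either clone. The second LIG3 probe was called lower in clone #3-1, at -0.35.

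Of the 9 homologous recombination genes, 6 were higher and 1 lower in clone #3-1, and 6 were higher and 0 lower in clone #4-7, where 3 did not pass. That is 66.7% higher in each clone, beside 24.5% and 23.2% of genes well above background. The shares lower were 11.1% and 0%, beside 23.7% and 22.1%. BRCA1, which helps load the recombinase, was at 1.13 and 1.13 in clone #3-1 and at 0.30 and 0.32 in clone #4-7. The 10 spots of its probe lay between 1.06 and 1.27 on the arrays of clone #3-1 and between 0.165 and 0.431 on those of clone #4-7, with no overlap. The clones differed by 0.82 (95% interval 0.70 to 0.93, adjusted p = 9.1e-05), 1.76-fold. BARD1, the partner of BRCA1 in its ubiquitin ligase, had means of 0.57 and 0.00, and BRCA2, the recombinase loader, of 0.54 and 0.23. RAD54L, a motor protein of strand exchange, was at 0.91 and 0.93 in clone #3-1 and at 0.72 and 0.67 in clone #4-7, and the difference of 0.23 (95% interval 0.11 to 0.34) missed the threshold. XRCC2, a paralogue of the recombinase, had means of 0.86 and 0.31 by its brightest probe and of 0.56 and 0.36 by the other. Both XRCC2 probes were called higher in both clones, but the difference of 0.54 by the first was 0.20 and not called by the other. XRCC3, another paralogue, had means of 0.27 and 0.11. MRE11A, now named MRE11, the nuclease that trims broken ends, was called by none of its 3 probes.

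RAD52 and RAD50 were lower in clone #3-1 than in clone #4-7. RAD52, an annealing protein, was at -0.17 and -0.16 in clone #3-1 and at 0.59 and 0.57 in clone #4-7, a difference of -0.74 (95% interval -0.85 to -0.63, adjusted p = 0.00013). RAD50, which tethers broken ends together with MRE11, was at -0.21 and -0.21 in clone #3-1 and at 0.36 and 0.37 in clone #4-7 by the 10-fold printed junction probe shown above. This gives a difference of -0.58 (95% interval -0.69 to -0.46). The second RAD50 probe lies closer to the end of the gene, at chr5:132006974-132007033 (hg17), and gave means of -0.22 and -0.14. The RAD50 probes therefore gave like values in clone #3-1 and opposite signs in clone #4-7, where the brighter was called and the other was not.

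XRCC4 had the largest difference of all 42 genes. Its log2 ratios were -0.66 and -0.64 in clone #3-1 and 0.70 and 0.73 in clone #4-7. It was called lower in clone #3-1, 1.57-fold, and higher in clone #4-7, 1.64-fold (adjusted p = 2.8e-05 and 2.6e-05). The difference was -1.37 (95% interval -1.48 to -1.25, adjusted p = 2.1e-05), or 2.58-fold. The 1 probe of XRCC4 spans 53668 bases of the genome, and no other probe of the gene was there to compare. LIG4, the ligase that XRCC4 binds, had means of 0.04 and 0.09, and XRCC5, a subunit of the Ku end-binding complex, of 0.09 and 0.16, and neither was called.

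**Figure D3:**
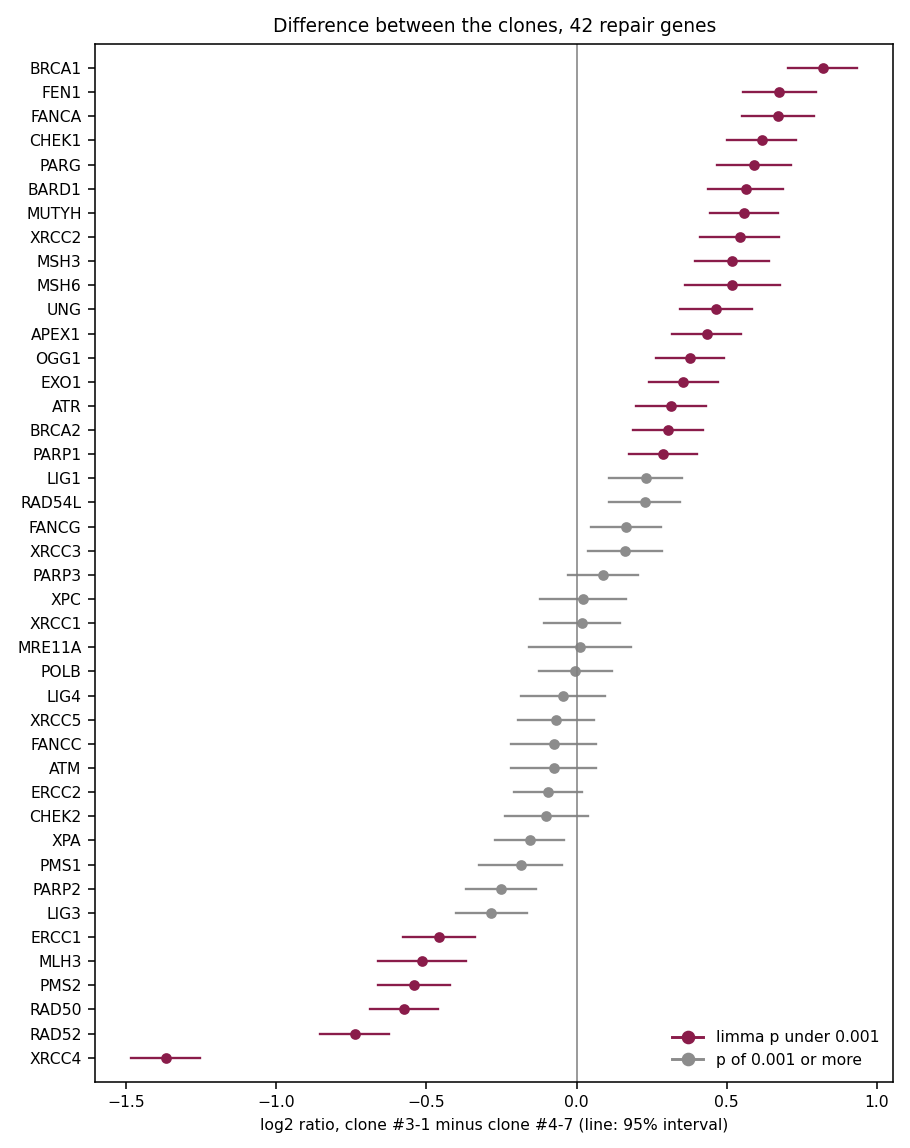
Difference in log2 ratio between clone #3-1 and clone #4-7 for each of the 42 repair genes, with 95% intervals from limma over 4 arrays. Genes called at p under 0.001 are dark. BRCA1 is at the top with 0.82 and XRCC4 at the bottom with -1.37.

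The nucleotide excision genes gave 0 higher and 1 lower of 4 in clone #3-1, where 3 had an unadjusted p of 0.001 or more, and 2 higher and 1 lower in clone #4-7. The share lower was 25% in each clone, near the 23.7% and 22.1% of genes well above background. The shares higher were 0% and 50%, beside 24.5% and 23.2%. ERCC2, the helicase of the repair factor TFIIH, was at -0.56 and -0.57 in clone #3-1 and at -0.46 and -0.48 in clone #4-7. It was 1.48-fold and 1.38-fold lower (adjusted p = 4.4e-05 and 9.7e-05), yet its other probe, at chr19:50556655-50556714 (hg17), gave -0.03 and -0.11 and was called in neither clone. ERCC1, a subunit of the incision nuclease, had means of -0.20 and 0.25 and differed by -0.46 between the clones. XPA, the scaffold of the incision complex, had means of 0.10 and 0.26 and was called in clone #4-7. XPC, which finds the lesion, was at 0.03 and 0.01 and was not called.

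Among the 4 checkpoint kinases CHEK1 stood highest. CHEK1, which ATR activates when replication stalls, was at 0.98 and 0.97 in clone #3-1 and at 0.37 and 0.35 in clone #4-7. It was 1.97-fold and 1.28-fold higher, and the clones differed by 0.62 (95% interval 0.50 to 0.73). ATR itself had means of -0.07 and -0.38 and was called lower in clone #4-7. ATM, the kinase of the double-strand break response, was not called by its brightest probe, with means of -0.15 and -0.08. The ATM probe printed 10 times was called lower in both clones, with means of -0.41 and -0.31. CHEK2, the kinase ATM activates, had means of 0.09 and 0.19 and was not called, and partial copies of CHEK2 in the genome make its reading uncertain.

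Of the Fanconi anaemia core genes, which mark the protein that recruits repair to DNA crosslinks, FANCA and FANCG were higher in both clones. FANCG was at 0.83 and 0.79 in clone #3-1 and at 0.64 and 0.64 in clone #4-7. FANCA was at 0.94 and 1.00 in clone #3-1 and at 0.29 and 0.30 in clone #4-7, a difference of 0.67 (95% interval 0.55 to 0.79, adjusted p = 0.00020). FANCC was read by 3 probes that did not go the same way. Its brightest probe gave 0.06 and 0.14 and was not called, but that probe and a second one, with means of -0.25 and -0.33, lie on the strand opposite to FANCC. These were the only probes on the opposite strand among the 63 whose gene had a strand in the RefSeq table. The FANCC probe on the gene's own strand gave 0.29 and 0.34 and was called higher in both clones.

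**Figure D4:**
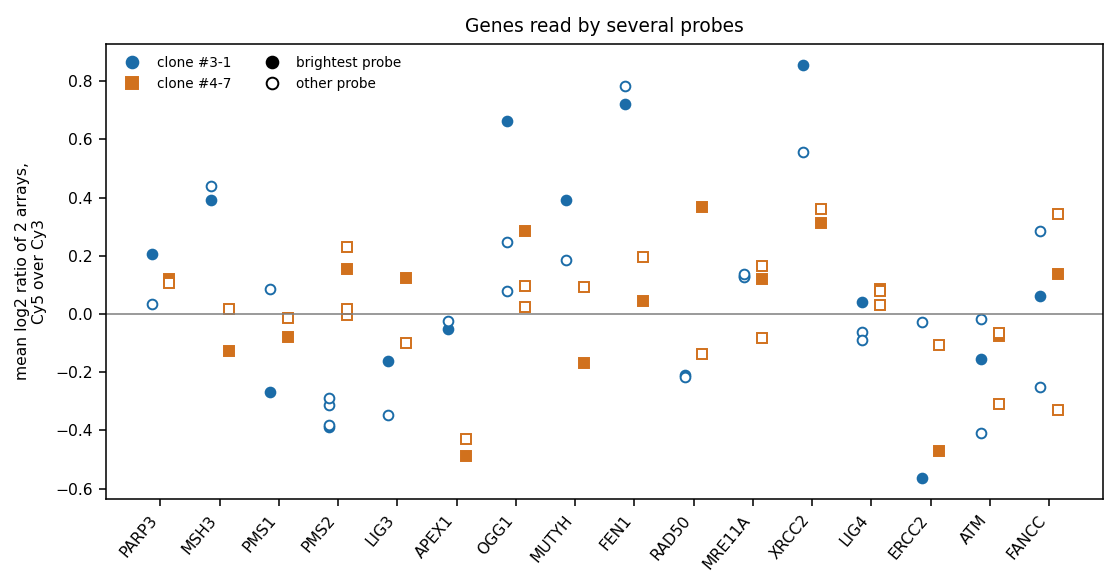
Mean log2 ratio of each probe for the 16 repair genes with several probes, circles for clone #3-1 and squares for clone #4-7, filled for the brightest probe. The probes of APEX1 lie close together, while those of ERCC2, OGG1, FANCC and, in clone #4-7, RAD50 are apart.

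For the difference between the clones, 17 genes were higher and 6 lower in clone #3-1 than in clone #4-7, and 19 were not called. The background over all genes was 11.5% higher and 11.8% lower, and over genes well above background 17% and 17.1%, beside 40.5% and 14.3% of the repair genes. Leaving out replicate 1 of clone #3-1 or replicate 2 of clone #4-7 left 11 genes called higher, and plain background subtraction or an offset of 0 left 8. Shares over all genes were not set beside these counts either. The 6 lower genes were XRCC4, RAD52, RAD50, PMS2, MLH3 and ERCC1. This contrast compares the arrays of both clones in the same dye orientation, whereas in the ratio of a clone to the control a dye effect of a probe and an effect of the clone cannot be told apart.

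Other repair genes were counted from a longer list. Of 97 further repair genes on the array, 45 were higher and 16 lower in clone #3-1, and 40 were higher and 14 lower in clone #4-7, with medians of 0.16 and 0.15. Of those called higher in both clones, the largest means over both were those of RAD54B, a motor protein of recombination, with means of 1.13 and 0.85, the helicase BLM with 1.11 and 0.93, and RAD18, a ligase of translesion synthesis, with 1.06 and 0.69. Of those called lower in both clones, the lowest were the helicase RECQL with -1.84 and -1.90, the glycosylase NEIL1 with -0.63 and -0.71, and the nuclease ERCC5 with -0.80 and -0.40. For the difference between the clones 23 of the 97 were higher and 13 lower, or 23.7% and 13.4%. That stands beside 11.5% and 11.8% of all genes and 17% and 17.1% of genes well above background. Against the control the 97 gave 46.4% higher and 16.5% lower in clone #3-1, and 41.2% and 14.4% in clone #4-7. Over genes well above background these shares were 24.5% and 23.7%, and 23.2% and 22.1%.

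Several repair genes are transcribed mainly in dividing cells, so a list of replication and mitosis genes was read beside them. Of its 27 genes on the array, 26 were higher and 0 lower in clone #3-1, where 1, CCNB2, had an unadjusted p of 0.001 or more. In clone #4-7, 19 were higher and 1 was lower, the proliferation antigen MKI67 at -0.52, and the medians of the list were 0.71 and 0.43. TYMS, which makes thymidylate, had means of 1.22 and 0.81, the cyclin CCNA2 of 0.83 and 0.91, and CCNB1 of 0.89 and 0.70. The difference between the clones was called higher for 14 of the 27 and lower for 0. The shares called higher were 96.3% in clone #3-1, 70.4% in clone #4-7 and 51.9% for the difference. Over genes well above background they were 24.5%, 23.2% and 17%. The shares called lower were 0%, 3.7% and 0%, beside 23.7%, 22.1% and 17.1%. The part of these 27 genes in the values of the repair genes was not tested.

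**Figure D5:**
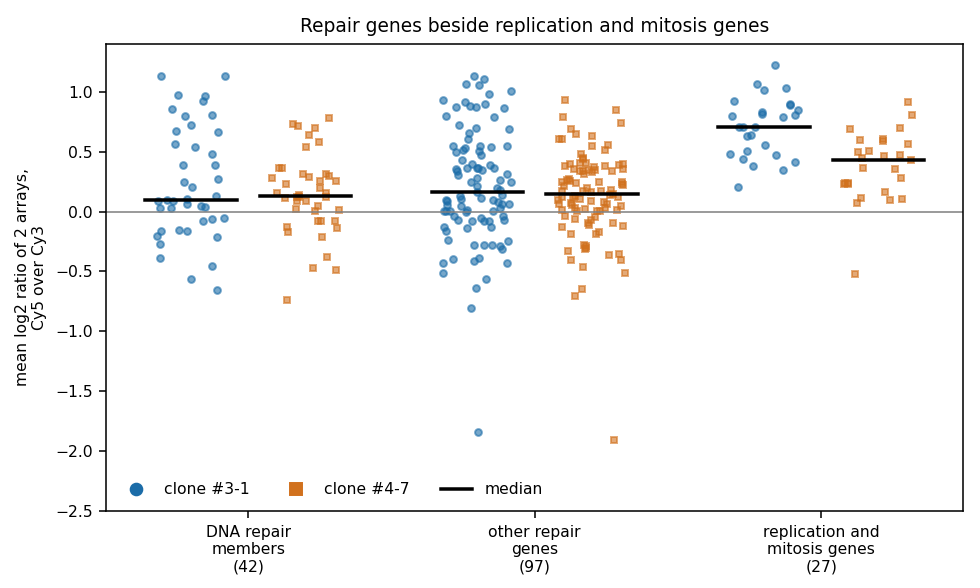
Mean log2 ratio per gene, Cy5 over Cy3, for the 42 repair genes, 97 other repair genes and 27 replication and mitosis genes, circles for clone #3-1 and squares for clone #4-7. Black bars are medians, 0.10 and 0.13 for the repair genes, 0.16 and 0.15 for the other repair genes, and 0.71 and 0.43 for the replication and mitosis genes.

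Promoters of the repair genes were searched for the letters that E2F factors, which switch on genes of S phase, are known to bind: TTTCCCGC, TTTCGCGC, TTTGCCGC and TTTGGCGC on either strand. The window was the 250 bases before the start of the gene in RefSeq (GRCh38.p14), which was given for 40 of the 42 genes, all but XRCC5 and POLB. Each gene had 1 window, so any other start of a gene was not searched. A match was found in 6 of the 40, against 3.72% of 15843 promoters of protein-coding genes and 2.79% of all 27305. The other repair genes had a match in 3 of 80, or 3.75%, and the replication and mitosis genes in 5 of 23, or 21.7%. Of the 25 repair genes called higher in at least 1 clone 2 had a match, MSH3 and FANCA, and of the other 15, 4 had one, PMS2, LIG1, XPC and FANCC. FANCC is counted there by its brightest probe, on the opposite strand, while its probe on the gene's own strand was called higher, so this split says little. MSH3 and FANCC had 2 matches each, and those of MSH3 overlap. To show a match beside a gene that was called and one that was not, the windows of FANCA, at chr16:89816648-89816897, and LIG1, at chr19:48170345-48170594, are printed here, both on the minus strand with the match in capitals. In FANCA the match is TTTGCCGC on the reverse strand, 172 to 165 bases before the start, and in LIG1 it is TTTCCCGC, 114 to 107 bases before the start. A match is a description of the letters and not of a bound factor.
FANCA: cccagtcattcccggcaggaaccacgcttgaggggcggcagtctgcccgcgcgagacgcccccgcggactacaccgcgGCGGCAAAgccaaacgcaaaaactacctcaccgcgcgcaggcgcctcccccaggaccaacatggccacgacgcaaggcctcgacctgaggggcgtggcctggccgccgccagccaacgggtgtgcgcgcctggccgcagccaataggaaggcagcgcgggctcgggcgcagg
LIG1: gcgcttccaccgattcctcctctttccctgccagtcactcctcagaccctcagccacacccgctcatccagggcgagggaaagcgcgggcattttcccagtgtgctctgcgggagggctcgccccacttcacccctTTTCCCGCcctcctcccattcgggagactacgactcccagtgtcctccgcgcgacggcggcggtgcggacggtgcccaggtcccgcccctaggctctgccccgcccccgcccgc

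As a check of the labelled cells, the epithelial keratins KRT8, KRT18 and KRT19, EPCAM (named TACSTD1 in the files) and CDX2 were well above background in both channels on all arrays. Of markers of blood, endothelial and fibroblast cells, PTPRC, PECAM1 and COL1A2 were not well above background on any array, and DCN on 1 of 4. CD3E and COL1A1 were on all 4, and COL1A1 was 1.51-fold lower in clone #3-1 and 2.17-fold lower in clone #4-7. Each array held 43376 probe spots, of which between 68.5% and 72.6% were well above background in a channel. Over all probes 6484 were higher and 6573 lower in clone #3-1, and 6359 and 5984 in clone #4-7.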

How the data were processed

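Labelled RNA of each clone and of the empty vector control was hybridised together to 2 arrays per clone, all on 1 slide. The deposited scanner files hold Cy5 and Cy3 intensity per spot with background intensity and flags, as written by Agilent Feature Extraction, version 9.5.3.1 per the file headers and 8.5.1.1 in the submitters' processing notes. The authors' table holds log10 ratios of the same spots. The mean intensities were corrected by normexp with an offset of 50, control and outlier spots were left out, loess was applied within each array and quantile normalisation between them, and repeated spots of a probe were averaged (limma 3.58.1, R 4.3.3). Log2 ratios computed from the deposited intensities were tested with limma over all 4 arrays, and a call is an unadjusted p under 0.001, the threshold of the study's methods, with the Benjamini-Hochberg adjusted p beside it. A gene is read by its brightest probe. The steps were tested on simulated data. Arrays of a clone are labelled as biological replicates, and p-values measure the spread between them, which may be technical if their RNA was not prepared separately. A test of the ratio against 0 holds no spread of the control, and precision is limited by having few arrays. Values per array are given for the poly(ADP-ribose) and mismatch repair genes, the 5 genes per direction with the largest mean among those called alike in both clones and the 5 with the largest difference, and up to 3 per direction of the other lists. Genes beyond that were named after their values were seen. The members and lists were chosen with earlier results of these data known. Coordinates are those of the files (hg17), and promoters are from RefSeq. Some genes of the lists are not reported here.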

Additional observations from a re-analysis of the deposited data

Results flagged for a closer look

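The clones differed at a limma p under 0.001 for 23 repair genes, given here as log2 ratio of clone #3-1 minus clone #4-7. The difference was above 0 for BRCA1 at 0.82, FEN1 at 0.68, FANCA at 0.67, CHEK1 at 0.62, PARG at 0.59, BARD1 at 0.56, MUTYH at 0.56, XRCC2 at 0.54, MSH3 at 0.52, MSH6 at 0.52, UNG at 0.46, APEX1 at 0.43, OGG1 at 0.38, EXO1 at 0.36, ATR at 0.32, BRCA2 at 0.31 and PARP1 at 0.29. It was below 0 for XRCC4 at -1.37, RAD52 at -0.74, RAD50 at -0.58, PMS2 at -0.54, MLH3 at -0.51 and ERCC1 at -0.46. These are values of the brightest probes. By the other probe the difference was 0.09 for MUTYH, 0.20 for XRCC2, 0.42 for MSH3 and -0.08 for RAD50, and none of these was called. The other OGG1 probes gave 0.05 and 0.15 and were not called either. Of the other PMS2 probes, those at -0.611 and -0.306 were called and the junction probe, at -0.307, was not.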

How the results depend on the processing

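Plain background subtraction left 3 genes called lower in clone #3-1, 7 higher and 3 lower in clone #4-7, and 8 higher and 3 lower for the difference between the clones. Normexp with an offset of 0 left 9 higher in clone #4-7 and 8 higher for the difference, and the software's processed signals left 11 higher for the difference. Calling by an adjusted p under 0.05, which is looser, gave 20 higher and 10 lower in clone #3-1. It gave 24 higher and 8 lower in clone #4-7, and 21 higher and 10 lower for the difference. Shares over all genes were not set beside the counts under the settings described here. Without each array in turn there were 9 to 16 genes higher in clone #4-7 and 11 to 12 higher for the difference. The PARP1 difference missed the threshold at 0.2903 with an offset of 0, 0.2893 with plain subtraction, 0.3125 with processed signals, 0.288 with the median in place of loess, 0.2887 with the replicate block, and 0.2847 to 0.2928 without 1 array. The replicate numbers share only a number (correlation of deviations -0.013), and with the replicate block 18 and 16 genes were called higher in clone #3-1 and clone #4-7. Of 628 values of single genes under the alternatives, 566 kept their call, 62 lost it and 0 turned sign. The cause was not tested.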

Other observations

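Among the other repair genes, the roles below were picked after their values were seen and are described with no test of the group. Of genes well above background, 24.5% were called higher and 23.7% lower in clone #3-1, and 23.2% and 22.1% in clone #4-7. For the difference between the clones these shares were 17% and 17.1%. Of 9 genes of the replication clamp, its loader and the single-strand binding complex, 7 were higher and 0 lower in clone #3-1, and 6 were higher and 0 lower in clone #4-7, with medians of 0.69 and 0.34. The clamp PCNA had means of 0.90 and 0.31. For the difference between the clones 6 of the 9 were called higher.

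The 17 other nucleotide excision genes were mixed, with 2 higher and 7 lower in clone #3-1 and 7 higher and 3 lower in clone #4-7. Of these, 6 were called lower in clone #3-1 than in clone #4-7. They include DDB2, which finds damage in chromatin, with means of -0.39 and 0.34, and ERCC6, of transcription-coupled repair, with -0.24 and 0.56.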
